A study of Mus musculus with 26 samples.

Results

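The 5 whole lung libraries of mice treated with propranolol were ranked by how much melanoma RNA they held, and the genes that followed or opposed that ranking were described. They were 5 of the 26 libraries of the series. They were selected on treatment and tissue and ordered on measured values, the load of each library, the mean of log2(CPM + 1) over the pigment cell genes Tyrp1, Dct, Pmel, Mlana and Slc45a2, where CPM is a gene's count divided by the library total and multiplied by a fixed constant. The 5 lung libraries of untreated mice were ordered in the same way as a check. All animals were C57BL/6 mice given B16F10 cells, a mouse melanoma cell line, through a vein, from which lung metastases formed. One group had propranolol, a blocker of β-adrenoceptors, and the other had no treatment. The labels used here do not state dose, duration, age or sex, nor that each library came from its own animal. The p-values therefore measure only how far these libraries varied, which may be technical spread. B16F10 is 1 transplanted line and the lungs were sequenced whole, so tumour, lung and immune cells share each library.

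Melanin is made in melanosomes, granules of pigment cells, by the enzymes encoded by Tyr, Tyrp1 and Dct on fibrils formed by the Pmel product. Mlana encodes a melanosome protein and Slc45a2 a melanosome transporter. The lineage regulator Mitf binds short E-box sequences near the starts of such genes, and Sox10 acts above it. Normal mouse lung holds few pigment cells, so these transcripts serve as a measure of tumour RNA in bulk tissue. In whole tissue, fewer cells of a type and less RNA per cell cannot be told apart.

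Promoter sequences of pigment genes are shown as background to the genes that move with the load in near proportion. Tyrp1 and Dct are load genes, which define the order, and Tyr is not. RefSeq promoters on build GRCm38.p6 run from 250 bases before to 50 bases after the gene start. They were at hand for Tyrp1 (chr4:80833963-80834262, plus strand), Dct (chr14:118052197-118052496, minus strand) and Tyr (chr7:87493463-87493762, minus strand). The E-box CATGTG, searched on both strands (CACATG on the other), stands in capitals.
Tyrp1: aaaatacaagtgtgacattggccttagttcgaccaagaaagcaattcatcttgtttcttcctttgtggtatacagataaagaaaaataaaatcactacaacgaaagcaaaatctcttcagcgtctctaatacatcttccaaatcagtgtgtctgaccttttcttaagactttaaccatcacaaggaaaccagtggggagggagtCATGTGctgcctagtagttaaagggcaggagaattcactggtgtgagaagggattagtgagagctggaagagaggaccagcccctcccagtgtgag
Dct: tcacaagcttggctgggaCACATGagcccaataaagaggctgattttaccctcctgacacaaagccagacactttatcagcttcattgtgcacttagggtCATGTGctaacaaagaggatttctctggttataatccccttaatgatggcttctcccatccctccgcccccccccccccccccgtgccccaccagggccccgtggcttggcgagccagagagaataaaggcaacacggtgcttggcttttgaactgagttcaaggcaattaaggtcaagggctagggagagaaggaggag
Tyr: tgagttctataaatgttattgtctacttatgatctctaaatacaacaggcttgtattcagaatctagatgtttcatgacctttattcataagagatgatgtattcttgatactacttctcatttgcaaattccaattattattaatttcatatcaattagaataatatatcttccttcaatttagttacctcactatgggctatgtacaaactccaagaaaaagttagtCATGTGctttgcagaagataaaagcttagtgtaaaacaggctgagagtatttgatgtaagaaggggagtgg
The motif began 46 bases before the start of Tyrp1, 232 and 150 bases before that of Dct, and 21 bases before that of Tyr, and each promoter held at least 1 copy of the longer form TCATGTG, which contains the shorter motif. The shorter form stood in 14.2% of all 32851 promoters of the table and the longer form in 3.77%. Among tested genes with a promoter in the table (12127) the shares were 10.9% and 2.89%. Among the 158 such genes whose slope on load, defined below, was called and at least 0.8, they were 18.4% and 6.96%, and among the 1971 called lower with load, 11.6% and 2.59%. A match describes these letters and is not a binding site.

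The load spread widely among treated lungs. It stood at 6.88 in replicate 4, 7.80 in replicate 3, 8.82 in replicate 2, 9.86 in replicate 1 and 10.06 in replicate 5 on the log2 scale, a range of 3.18 or 9.07-fold. The first 3 steps of the order were close to a doubling (0.92, 1.02 and 1.04), and the last, from replicate 1 to 5, was 0.20. Untreated lungs stood at 10.68 (replicate 3), 11.01 (replicates 5 and 2), 11.09 (replicate 4) and 11.26 (replicate 1), a range of 0.58 or 1.49-fold. The groups did not overlap, with 0.617 between the highest treated and the lowest untreated library. Replicate numbers order nothing by themselves, and below treated values are listed from low to high load (replicates 4, 3, 2, 1, 5).

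These values chose the order and are given without a test. Plain CPM of Tyrp1 were 231, 451, 860, 1723 and 2034 in treated lungs, and 3430 to 5601 in untreated lungs. Dct stood at 293, 546, 1241, 2545 and 3131 CPM against 4341 to 6193. Pmel stood at 218, 412, 818, 1733 and 1922 CPM against 3304 to 4930. Each of these genes stepped up at every step of the treated order. Mlana, at 30.4, 58.4, 117, 250 and 247 CPM, was the exception at the last step. Slc45a2 stood at 47.6, 90.1, 181, 360 and 461 CPM. The highest treated library held 8.22 to 10.7 times the lowest for the 5 genes. The treated order was the same when any 1 of the 5 genes was left out or when 5 other pigment genes (Tyr, Oca2, Slc24a5, Gpr143 and Trpm1) were used.

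**Figure D1:**
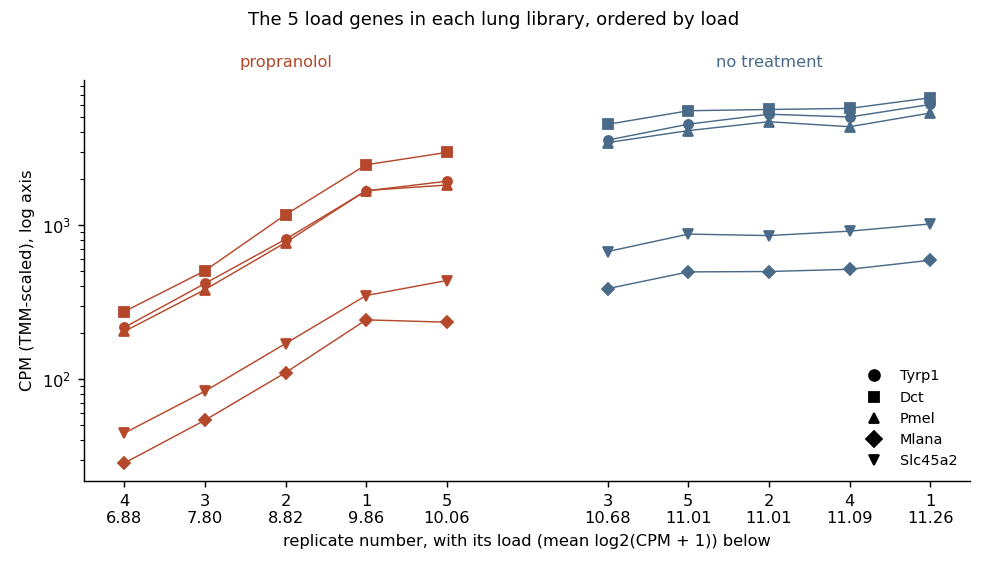
TMM-scaled CPM on a log axis (y) of the 5 load genes in each lung library, ordered by load within each group (x, replicate number with its load below). Red lines join treated and blue lines untreated libraries, and the treated libraries climb from a load of 6.88 to 10.06 while the untreated ones lie between 10.68 and 11.26.

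Total counts ran from 29650148 to 43447855 per treated and from 33232082 to 47618634 per untreated lung library. Treated replicates 2 and 1, the third and the fourth in load, were the shallowest. No pair of libraries within a group agreed within sampling noise over 20 pairs. Resident lung cell markers (61 genes of alveolar cells, endothelium, smooth muscle and pericytes) were present in all 10 libraries, so the tissue label held.

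A slope on load was fitted for each of 16898 genes, those averaging 0.5 CPM or more over the 10 lungs, with the 5 load genes left out. A slope of 1 is a doubling of the gene, per doubling of the load, after TMM scaling, which sets libraries to a common level over most genes. Slopes are in log2 units and are given ± SE, with the adjusted p of the quasi-likelihood test of edgeR, and levels from here on are TMM-scaled CPM. Among treated lungs 5984 genes (35.4%) were called at an adjusted p under 0.05, 3235 higher (19.1%) and 2749 lower with load (16.3%). These shares are the background for every count of called list members below. The median slope over all tested genes was −0.01. Of the called genes, 231 had a slope of at least 0.8, 597 lay between 0.4 and 0.8 and 2407 between 0 and 0.4. On the falling side 2638 lay between 0 and −0.4 and 111 at −0.4 or less. Slopes near proportion to the load were thus a small share of the calls. In strict order of load, 2211 genes (13.1%) stepped up at all 4 steps and 1093 (6.47%) stepped down.

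Direction depended on the scaling. With libraries scaled on the summed resident lung cell markers, 8819 genes (52.2%) were called higher and 72 (0.426%) lower, and the median slope of all genes moved to 0.17. In other words, a slope near −0.18 under TMM is a slope near 0 relative to resident lung cells, and the second value is given below for lists whose median changed sign. The background for list counts with that scaling is 52.2% higher and 0.426% lower. Counts of lower calls also rested on single libraries. They were 1615 without replicate 3, 1761 without replicate 4 and 1651 without replicate 5, and higher calls ranged from 2258 to 3594 over the libraries left out.

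Transcripts of pigment and melanocyte genes rose with the load, many of them in near proportion. All 12 melanosome and pigment genes were called higher (background 19.1%), with slopes from 0.19 to 1.09 and a median of 0.87. Since the load was built from genes of the same cells, this describes how tightly the set moved and is no separate evidence for the order. Sox10 stood at 26.5, 51.1, 106, 219 and 243 CPM in treated lungs and at 398 to 575 in untreated lungs. It rose at every step, 9.17-fold from the lowest to the highest load, with a slope of 0.99 ± 0.028 (adjusted p = 4.28e-08). Tyr, the first enzyme of melanin synthesis, stood at 26.6, 58.0, 119, 259 and 323 CPM, with a slope of 1.09 ± 0.031. Trpm1, a cation channel of melanocytes, stood at 35.6, 76.8, 141, 295 and 323 CPM, with a slope of 0.97 ± 0.034. Both lay below every untreated library in all 5 treated lungs. Of all tested genes 55.2% did not overlap between the groups, so such gaps, here and below, were common. Myo5a, the motor that carries melanosomes, rose from 107 to 646 CPM with a lower slope (0.78 ± 0.034).

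The genes with the smallest p included several that are not on the pigment list. Ptgds, a prostaglandin D2 synthase, stood at 33.6, 60.8, 140.4, 289.7 and 321 CPM (slope 1.02 ± 0.031). Syt4, a synaptotagmin of vesicle traffic, stood at 29.2, 59.1, 142, 285 and 377 CPM (slope 1.12 ± 0.034). Tspan10, a tetraspanin that is on the pigment list, rose from 21.1 to 212 CPM (slope 1.004 ± 0.032). Other genes in this group are better known from nerve and matrix biology and moved in much the same proportion. Glrb, a glycine receptor subunit, rose from 11.6 to 112 CPM (0.98 ± 0.033), Chsy3, a chondroitin sulfate synthase, from 14.5 to 125 CPM (0.95 ± 0.033), and Scn8a, a sodium channel, from 8.09 to 76.1 CPM (1.01 ± 0.035). Adjusted p ranged from 4.28e-08 to 8.17e-08 for these 6 genes.

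The lineage list held exceptions. Of 12 genes, 10 were called higher and 2 lower (background 19.1% and 16.3%), the lower share near that of all tested genes. Mitf stood at 59.7, 107, 148, 293 and 345 CPM, a slope of 0.74 ± 0.039 (adjusted p = 9.21e-07). Met, the receptor of hepatocyte growth factor, rose from 182 to 1006 CPM (0.74 ± 0.036). Gpnmb, a glycoprotein of melanosomes that macrophages also make, stood at 219.7, 347, 993, 2114 and 2421 CPM (1.11 ± 0.048). Kit, the receptor of stem cell factor and a melanocyte gene that mast cells also express, went the other way. It stood at 263, 248, 254, 227 and 171 CPM, above every untreated library (114 to 154), with a slope of −0.16 ± 0.046 (adjusted p = 0.0214). That call was lost without replicate 3, 4 or 5 (adjusted p = 0.0564, 0.0611 and 0.0825). Ednrb, the endothelin receptor of melanoblasts that endothelium also expresses, stood at 103, 102, 98.0, 70.7 and 78.4 CPM (−0.18 ± 0.039, adjusted p = 0.00551). Relative to resident markers the slopes of Kit and Ednrb were 0.02 and 0.01, and neither was called. Both were chosen after their values had been seen.

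Cell division genes rose with load, by less than the pigment genes. All 16 DNA replication genes and all 16 mitosis genes were called higher (background 19.1%), with median slopes of 0.45 and 0.70. Mcm2, part of the replicative helicase, stood at 44.4, 65.2, 97.2, 189 and 229 CPM (0.72 ± 0.039). Rrm2, a subunit of ribonucleotide reductase, stood at 20.9, 38.4, 56.9, 110.4 and 147 CPM (0.82 ± 0.043). Pcna, the sliding clamp of DNA polymerase, changed less, with 55.0, 62.7, 70.0, 108 and 125 CPM (0.34 ± 0.042). For Top2a, a topoisomerase of dividing cells, the values were 38.0, 56.9, 79.8, 155 and 195 CPM (0.70 ± 0.043), and for Mki67, the proliferation marker Ki-67, 42.1, 59.5, 74.5, 136 and 159 CPM (0.57 ± 0.041). All treated libraries lay below all untreated ones for these 5 genes (55.2% of all tested genes did not overlap, in either direction). Adjusted p ranged from 9.65e-07 to 0.000239. With 1 library left out, 15 or 16 of the 16 replication genes and all 16 mitosis genes were called.

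**Figure D2:**
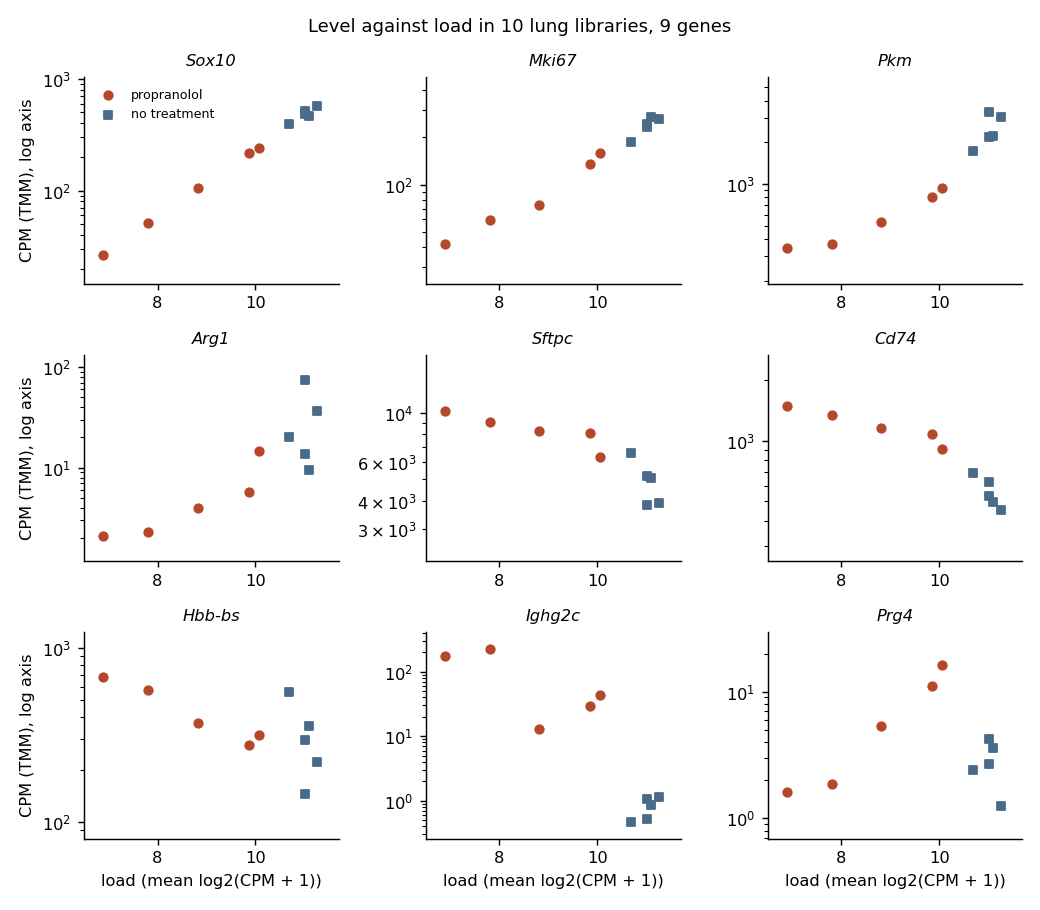
Level (TMM-scaled CPM, log axis, y) against load (mean log2(CPM + 1), x) of 9 genes in 5 treated (red circles) and 5 untreated (blue squares) lungs. Sox10 climbs along both groups, Sftpc and Cd74 descend, and Ighg2c and Prg4 run differently in treated and untreated lungs.

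Metabolic and biosynthetic genes rose by small slopes. In glycolysis and hypoxia, 12 of 23 genes were called higher and 1 lower (background 19.1% and 16.3%), with a median of 0.19. Pkm, a pyruvate kinase, stood at 341, 366, 529, 811 and 930.0 CPM (0.45 ± 0.042, adjusted p = 4.02e-05). Aldoa, an aldolase, stood at 343, 364, 438, 579 and 643 CPM (0.27 ± 0.033). The lower gene was Vegfa, a hypoxia target that alveolar cells also make, at 976, 916, 845, 730.4 and 653 CPM (−0.19 ± 0.032, adjusted p = 0.00151). Its slope relative to resident markers was −0.004 and was not called. All 12 higher genes were glycolytic enzymes. The other 10, among them the hypoxia targets Bnip3 (slope −0.06), Adm (−0.02), Ndrg1 (0.01) and Car9 (0.13), were not called. With resident scaling Ndrg1 (0.19) and Car9 (0.32) were called higher, and Bnip3 (0.13) and Adm (0.16) were not called. In oxidative phosphorylation 23 of 25 nuclear genes were higher (median 0.18). Among them was Atp5b of ATP synthase, with 466, 492, 611, 830.1 and 851 CPM (0.27 ± 0.032). In the cytosolic ribosome 23 of 32 were higher (median 0.12), for instance Rpl4 with 591, 629.8, 734, 849 and 879 CPM (0.17 ± 0.028). No gene of these 2 lists was lower. With 1 library left out the counts were 20 to 24 and 16 to 25. Cholesterol synthesis had 13 of 20 higher (background 19.1%, median 0.13, and 9 without replicate 1, 3 or 5 and 7 without replicate 4). Integrated stress and unfolded protein response had 13 of 18 (median 0.15, 9 to 13 with 1 library left out).

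Chaperones split under TMM scaling. Of 17 genes, 8 were called higher and 3 lower (background 19.1% and 16.3%), with a median of 0.06. The lower share was near that of all tested genes. With resident scaling 13 were higher (background 52.2%) and none lower (median 0.25). The mitochondrial chaperonin Hspd1 stood at 86.3, 108, 149, 229 and 290.2 CPM (0.51 ± 0.039, adjusted p = 1.06e-05). Constitutive Hsp90ab1 stood at 982, 1030.0, 1096, 1439.5 and 1699 CPM (0.21 ± 0.041), and constitutive Hspa8 at 425, 442, 447, 581 and 658 CPM (0.17 ± 0.038). The stress-inducible Hsp90aa1 was also higher, at 239, 297, 302, 431 and 561 CPM (0.32 ± 0.048, adjusted p = 0.000806). The lower genes were Hspa1a, Hspa1b and Hspb1, which are stress-inducible too. Hspa1a stood at 4.50, 4.30, 2.317, 2.202 and 2.442 CPM (−0.36 ± 0.093, adjusted p = 0.0128) and Hspa1b at 9.96, 8.05, 4.89, 4.53 and 5.51 CPM (−0.34 ± 0.074, adjusted p = 0.00566), and reads of these near-identical genes may be shared. Hspb1 stood at 49.3, 40.6, 35.7, 34.0 and 37.5 CPM (−0.16 ± 0.037). In untreated lungs all 3 were higher than in every treated library (7.50 to 14.5, 25.3 to 61.9 and 61.2 to 411 CPM), although those lungs carried more load. The groups did not overlap in 55.2% of all tested genes. None of the 3 was called without replicate 4 (adjusted p = 0.0804, 0.105 and 0.188). Relative to resident markers their slopes were −0.17, −0.15 and 0.03, and none was called. Hsph1, another stress chaperone, ran from 45.2 to 69.5 CPM with no call (0.06 ± 0.052), and from 150.1 to 238 CPM in untreated lungs.

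Transcripts of resident lung cells opposed the load under TMM scaling, with list medians in a narrow band. Called lower (background 16.3%) were 12 of 13 alveolar type 1 genes, 13 of 13 alveolar type 2 genes, 18 of 21 endothelial genes and 11 of 14 of smooth muscle and pericytes, with none higher. Their medians were −0.18, −0.17, −0.18 and −0.22. Single genes spread more, from −0.24 to −0.03 in alveolar type 1 and from −0.54 to −0.09 in smooth muscle and pericytes. The surfactant gene Sftpc of type 2 cells stood at 10149.6, 9031, 8273, 8059 and 6292 CPM, a slope of −0.19 ± 0.042 (adjusted p = 0.00736, and 0.0569 without replicate 4). Ager, the receptor of type 1 cells, stood at 1588, 1389.6, 1331, 1258 and 1074 CPM (−0.16 ± 0.033). Ptprb, the endothelial tyrosine phosphatase, stood at 1561, 1533, 1394, 1131 and 961 CPM (−0.23 ± 0.041), and Mylk, the myosin kinase of smooth muscle, at 471, 437, 437, 355 and 335 CPM (−0.17 ± 0.033). Relative to their own sum these lists had medians of 0.01, 0.01, 0.00 and −0.03, which the scaling fixes. With 1 library left out the counts were 12, 7 to 13, 13 to 20 and 9 to 11, the lowest without replicate 4 for type 2 cells.

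Erythroid and ciliated genes had steeper median slopes than the resident cell lists. All 6 erythroid genes that passed the filter (of 8 listed) were called lower, with a median over the 6 of −0.41. The globin gene Hbb-bs stood at 685, 577, 371, 278 and 316 CPM (−0.42 ± 0.039, adjusted p = 3.92e-05), Hba-a1 at 242, 198, 132, 107 and 111 CPM (−0.40 ± 0.032), and Hbb-bt at 41.8, 36.4, 20.6, 15.9 and 18.2 CPM (−0.46 ± 0.051). Alas2, the first enzyme of heme synthesis in red cells, went from 62.0 to 31.4 CPM (−0.39 ± 0.044). For all 4 genes the lowest value was in replicate 1, not in replicate 5 with the highest load. They remained called lower relative to resident markers, with slopes of −0.19 (Alas2) to −0.27 (Hbb-bt). Treated and untreated ranges overlapped, for Hbb-bs 278 to 685 against 145 to 558 CPM. Reads of near-identical globin genes may be shared. Ciliated airway genes formed the other group, with 9 of 12 lower and a median of −0.28, but 5 to 11 with 1 library left out (5 without replicate 3). With resident scaling 1 of the 12 was lower and the median was −0.09. Tppp3, a tubulin-binding protein of cilia, stood at 369.7, 317, 246, 207 and 216 CPM (−0.28 ± 0.029), and its slope relative to resident markers was −0.10 and was not called.

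Airway secretory cells had 6 of 11 genes lower (median −0.22, and 3 without replicate 1 or 3 and 4 without replicate 5). The other 5 members, Bpifa1 (slope 0.72), Scgb3a1 (0.48), Bpifb1 (0.39), Muc5b (0.05) and Reg3g (0.03), secreted products of airway epithelium, were not called. Relative to resident markers none of the 11 was lower and 4 were higher (median −0.03), so this list did not move as one. Scgb1a1 of club cells stood at 13061, 13827, 14099, 7249.7 and 8252 CPM, a step between the 3 libraries of lower and the 2 of higher load (−0.29 ± 0.078, adjusted p = 0.0166). That call was lost without replicate 1, 3 or 5 (adjusted p = 0.0784, 0.0626 and 0.0566). Other genes of small p in this direction were Rasgef1a, a guanine nucleotide exchange factor, with 115, 103, 85.7, 71.6 and 68.8 CPM (−0.26 ± 0.027), and Igfbp5, a binding protein of insulin-like growth factors, with 393, 352, 253, 233 and 219 CPM (−0.29 ± 0.031). Adcy4, an adenylyl cyclase of endothelium, went from 131 to 81.0 CPM (−0.25 ± 0.027), and Plekha6 from 135 to 84.6 CPM (−0.25 ± 0.027). Adjusted p ranged from 8.03e-05 to 0.000121 for these 4. Relative to resident markers none was called (slopes −0.06 to −0.11).

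**Figure D3:**
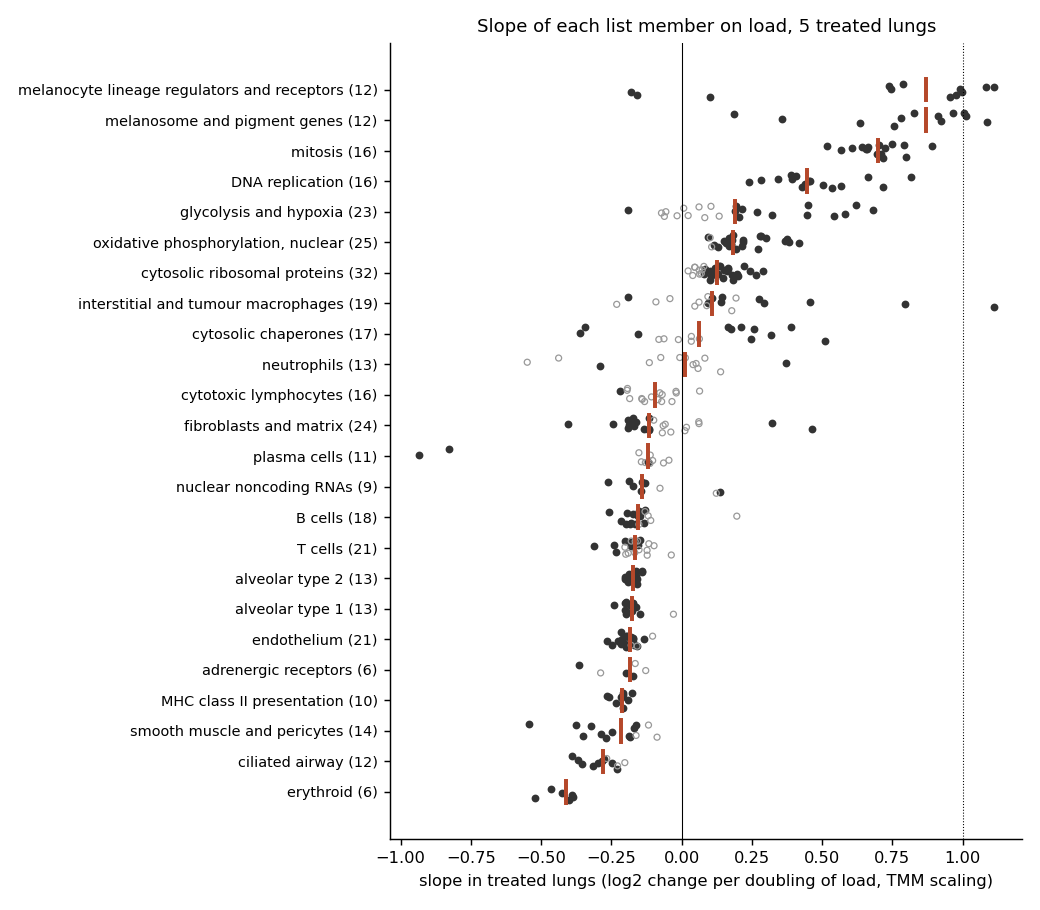
Slope on load in treated lungs (x, log2 change per doubling of load, TMM scaling) of each tested member of 24 gene lists (y, number tested in brackets). Filled points passed an adjusted p of 0.05, open points did not, red bars are list medians and the dotted line marks proportion to the load. Medians run from 0.87 for pigment genes to −0.41 for erythroid genes.

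Fibroblast and matrix genes turned with the scaling. Under TMM 13 of 24 were lower and 2 higher (median −0.12, and 7 lower without replicate 4 and 8 without replicate 5), and relative to resident markers 1 was lower and 9 higher (median 0.07). The higher ones under TMM were Thbs2, a thrombospondin, with 5.11, 7.62, 9.81, 15.5 and 14.5 CPM (0.47 ± 0.055, adjusted p = 0.000184), and Timp1, an inhibitor of matrix metalloproteinases, with 6.25, 6.39, 8.95, 12.8 and 11.8 CPM (0.32 ± 0.059, adjusted p = 0.00235). Both stood higher in every untreated library (35.7 to 69.5 and 29.605 to 126 CPM), where 55.2% of all tested genes did not overlap between the groups.

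Under TMM scaling lymphocyte genes were lower or not called. Of 18 B cell genes, 13 were lower (median −0.15, and 4 without replicate 4). Ighd, the heavy chain of immunoglobulin D, stood at 44.4, 40.1, 42.0, 31.9 and 34.6 CPM (−0.15 ± 0.038, adjusted p = 0.0134, lost without replicate 1 or 4 at 0.0704 and 0.0723). Ighm, the heavy chain of immunoglobulin M, stood out from the list, at 171, 208, 142, 188 and 367 CPM. Its highest value was in the library of highest load, and its slope was not called (0.20 ± 0.102, adjusted p = 0.159). Of 21 T cell genes, 8 were lower (background 16.3%, median −0.17). Leaving out single libraries moved this count to 4 without replicate 1, 2 without replicate 3, 5 without replicate 4, 1 without replicate 5 and 13 without replicate 2. Cd2, an adhesion receptor of T cells, stood at 23.1, 21.1, 19.3, 16.8 and 16.2 CPM (−0.18 ± 0.038, adjusted p = 0.00477). Of 16 tested cytotoxic lymphocyte genes only Ctsw, a cathepsin, was called, with 9.59, 8.79, 9.30, 7.15 and 5.51 CPM (−0.22 ± 0.071), and it was not called without replicate 1, 3, 4 or 5 (adjusted p = 0.0652, 0.0892, 0.0953 and 0.197). The granzyme gene Gzma was highest in the middle of the order, at 19.6, 20.8, 29.7, 22.6 and 13.4 CPM (−0.07 ± 0.105, adjusted p = 0.629). Relative to resident markers the medians of the B, T and cytotoxic lists were 0.04, 0.02 and 0.08, and no gene of the 3 lists was lower. With that scaling 1 B cell gene, Ighm (0.40, adjusted p = 0.000658), and 1 T cell gene, Tcf7 (0.15, adjusted p = 0.02), were called higher (background 52.2%). Tcf7 was not called under TMM (−0.04 ± 0.037, adjusted p = 0.462).

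Under TMM scaling all 10 tested genes of antigen presentation by MHC class II were called lower with load (background 16.3%, median −0.21, and 9 or 10 with 1 library left out). Cd74, the invariant chain, stood at 1488, 1338, 1160.5, 1084 and 914 CPM (−0.21 ± 0.033, adjusted p = 0.000887). H2-Ab1, a class II β chain, stood at 615, 549.9, 482, 457 and 367 CPM (−0.22 ± 0.035, adjusted p = 0.00117). Both fell at every step and every treated library lay above every untreated one (454 to 694 and 159 to 259 CPM). The groups did not overlap in 55.2% of all tested genes. Relative to resident markers the class II median was −0.03 and none of the 10 genes was called. MHC class I had 10 of 18 lower and 1 higher (median −0.12, with 4, 2 and 1 lower without replicate 3, 4 and 5), and relative to resident markers none lower and 6 higher (median 0.06). Of 20 interferon-gamma response genes 7 were lower (background 16.3%). That count ran from 1 without replicate 5 to 11 without replicate 4 (3 without replicate 1 and 2 without replicate 3). Their median was −0.14, and relative to resident markers it was 0.04 with no gene called.

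Myeloid lists did not move as one. Of 19 genes of interstitial and tumour macrophages, 9 were higher and 1 lower (median 0.11, with 6 higher without replicate 1 or 3). Gpnmb was the steepest of them and Vegfa the lower one, and both are described above. The median of this list in untreated lungs was −0.39, with 12 of the 19 slopes below 0. Apoe, an apolipoprotein, stood at 634, 577, 708, 841 and 748 CPM (0.11 ± 0.037, adjusted p = 0.0444, lost without replicate 1 or 3 at 0.206 and 0.143). Arg1, an arginase of alternatively activated macrophages, stood at 2.12, 2.28, 3.999, 5.71 and 14.8 CPM (0.80 ± 0.135, adjusted p = 0.00155). It stood highest in replicate 5, within the untreated range of 9.60 to 73.8 CPM, and was chosen after its values had been seen. Alveolar macrophage genes had 9 of 14 tested lower (median −0.18, and 5 without replicate 3, 4 or 5), and relative to resident markers 1 lower and 3 higher (median 0.01). Mrc1, the mannose receptor, stood at 109, 104, 93.8, 87.6 and 82.0 CPM (−0.14 ± 0.027). Of 13 classical monocyte genes 2 were lower, a share near the 16.3% of all tested genes, and none higher (median −0.05). None was lower without replicate 1 or 3, and without replicate 5 none was lower and 2 were higher (median 0.06). With resident scaling 5 were higher and none lower (median 0.13). Csf1r, the receptor that monocytes and macrophages depend on, stood at 183, 170.4, 195, 178 and 134 CPM with no call (−0.09 ± 0.049). Fscn1, an actin bundler on the dendritic cell list that tumour cells can also express, rose from 41.0 to 131 CPM (0.54 ± 0.044), whereas 7 of the 15 dendritic cell genes were lower (median −0.12, and 2 lower without replicate 3 or 5). With resident scaling none of the 15 was lower and 3 were higher (median 0.06).

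A few genes fell far outside their list, and others, which are on no list, rose in near proportion to the load. They were chosen after their values had been seen. Ighg2c and Ighg2b, heavy chains of immunoglobulin G, were high in the 2 libraries of lowest load. Ighg2c stood at 177, 228, 13.1, 29.0 and 44.4 CPM, and at 0.462 to 1.16 CPM in untreated lungs (slope −0.93 ± 0.249, adjusted p = 0.0155, lost without replicate 1 or 4 at 0.0522 and 0.0516). Ighg2b stood at 67.7, 93.9, 29.8, 15.3 and 18.5 CPM, and at 1.79 to 4.62 CPM in untreated lungs (−0.83 ± 0.125, adjusted p = 0.000812). They and Sdc1 (−0.12), the plasma cell marker syndecan that epithelium also makes, were the 3 lower genes of 11 on the plasma cell list (background 16.3%). The list median was −0.12, and 0.07 relative to resident markers. The list's summed level was 807 to 1294 CPM in treated and 403 to 549.6 CPM in untreated lungs. The Sdc1 call was lost without replicate 4 or 5 (adjusted p = 0.0788 and 0.0583). Reads of related immunoglobulin genes may be shared.

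In the other direction, Saa3, an acute phase gene, stood at 0.952, 2.43, 4.19, 6.45 and 13.7 CPM (1.033 ± 0.113, adjusted p = 0.000115) and Prg4, the lubricant proteoglycan, at 1.62, 1.87, 5.40, 11.01 and 16.4 CPM (1.07 ± 0.093, adjusted p = 2.63e-05). In untreated lungs, which carried more load, Prg4 stood at 1.24 to 4.20 CPM, below the 3 treated libraries of highest load. Saa3 stood there at 5.69 to 16.2 CPM, a range that held the 2 treated libraries of highest load and lay above the other 3. Both were still called relative to resident markers (slopes 1.24 and 1.26).

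Of 6 adrenoceptor genes tested (of 8 listed), 3 were called lower with load (background 16.3%) and 3 were not called. Adrb1, the β1-adrenoceptor gene, stood at 82.6, 73.2, 62.7, 60.3 and 53.7 CPM (−0.20 ± 0.029, adjusted p = 0.00065). Adrb3, the β3 gene, stood at 13.1, 9.75, 9.87, 6.19 and 5.90 CPM (−0.36 ± 0.063, adjusted p = 0.00168). With Adra1a, an α1 gene (−0.17 ± 0.044, adjusted p = 0.0128, lost without replicate 1 or 5 at 0.0539 and 0.0672), they made up the 3 lower genes, and the median of the 6 was −0.18. Relative to resident markers the slopes were −0.01, −0.18 and 0.01, none of the 6 was called, and their median was 0.00.

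Among vascular genes, 8 of 15 angiogenesis ligands and receptors were lower and 2 higher (background 16.3% and 19.1%, median −0.15). Relative to resident markers none was lower and 4 were higher (median 0.03). Kdr, the main receptor of vascular endothelial growth factor, stood at 485, 461, 433, 345 and 322 CPM (−0.20 ± 0.033). The higher ones were Vegfb, a ligand of the same family, with 28.6, 28.4, 35.9, 54.6 and 64.1 CPM (0.36 ± 0.049, adjusted p = 0.00048), and the co-receptor Nrp2 with 131, 136, 153, 186 and 188 CPM (0.16 ± 0.027, adjusted p = 0.00187). Nuclear noncoding RNAs had 6 of 9 lower and 1 higher (median −0.14), and relative to resident markers none lower and 2 higher (median 0.05). Neat1, the scaffold of paraspeckles, stood at 1572, 1364, 1287, 1186 and 1195 CPM (−0.14 ± 0.029, adjusted p = 0.00451, and 0.0594 without replicate 4). The higher one, Gas5, ran from 53.3 to 80.8 CPM (0.14 ± 0.041, adjusted p = 0.0265, lost without replicate 3 or 5 at 0.0887 and 0.182). Nr4a3, an immediate early gene and cAMP target that was chosen after its values had been seen, rose from 15.1 to 57.2 CPM (0.56 ± 0.053, adjusted p = 4.26e-05).

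Of 10 cardiac muscle genes tested (of 12 listed), 2 were higher and 2 lower, shares near those of all tested genes (19.1% and 16.3%). Myh6, the atrial myosin heavy chain, stood at 0.108, 0.0852, 0.381, 2.65 and 9.33 CPM in treated and between 0.232 and 85.0 CPM in untreated lungs. Its slope of 2.47 ± 0.274 was steeper than proportion to the load. Sln, a regulator of the calcium pump in atrial muscle, had no count in the 3 libraries of lowest load and 0.191 and 0.145 CPM in the others. Its fitted slope thus depends on the prior count, and its call was lost without replicate 1 (adjusted p = 0.0542). Sln passed the filter only through untreated lungs (mean 1.84 CPM, against 0.0673 CPM in treated lungs), so its call is not read as a result. Actc1, cardiac actin, went from 47.8 to 23.6 CPM (−0.45 ± 0.082) and Myh7, the slow myosin heavy chain, from 20.2 to 12.0 CPM (−0.21 ± 0.058, lost without replicate 3 or 5 at adjusted p = 0.059 and 0.11). The summed level of the list was 50.1 to 91.3 CPM in treated and 16.6 to 223 CPM in untreated lungs. Whether heart tissue in some samples played a part in the values of Myh6 was not tested.

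**Figure D4:**
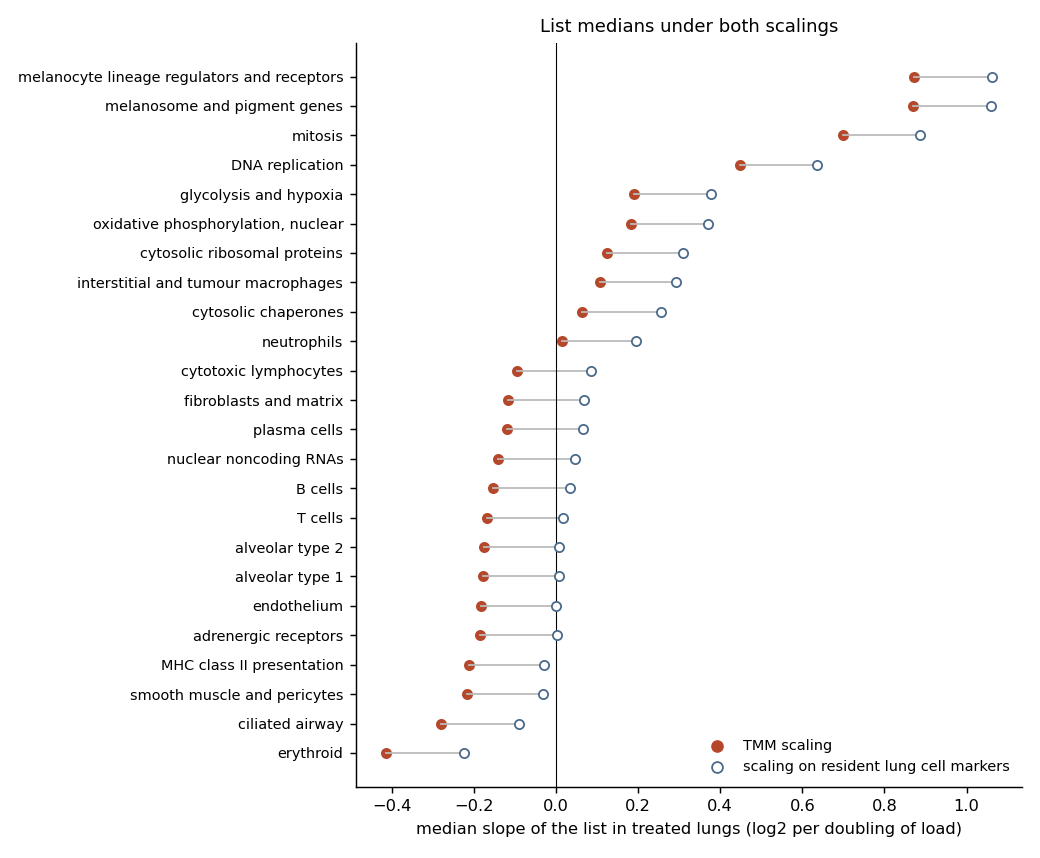
Median slope on load of 24 gene lists in treated lungs (x, log2 per doubling of load) with TMM scaling (filled red) and with libraries scaled on summed resident lung cell markers (open blue). Alveolar and endothelial lists move from about −0.18 to 0, pigment genes from 0.87 to 1.06, and erythroid genes stay below 0 at −0.22.

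The untreated lungs offered a weaker check, because their load spanned 1.49-fold. No gene was called there by edgeR (0 of 16898, 2709 at an unadjusted p under 0.05), while DESeq2 called 239 higher and 465 lower. Without untreated replicate 2, 726 were higher and 1329 lower. Directions of called genes were nonetheless mostly shared. Some list medians differed in sign between treated and untreated lungs. They were 0.11 and −0.39 for interstitial and tumour macrophages, 0.01 and −0.99 for neutrophils, and 0.02 and −1.46 for mesothelium. Of the genes called higher in treated lungs 96.4% had a slope above 0 in untreated lungs, of those called lower 4.55%, and of all tested genes 52.4%. Among the 231 genes with a called slope of at least 0.8 the share was 93.1%, with a median untreated slope of 0.89. Their untreated slope was 0.86 ± 0.25 for Sox10 and 1.0302 ± 0.59 for Tyr. In strict order of load 254 genes (1.5%) stepped up and 203 (1.2%) down in untreated lungs.

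Lung cell lists had steeper slopes in untreated than in treated lungs. Medians were −1.22 for alveolar type 1, −1.12 for alveolar type 2 and −1.13 for endothelium, against −0.18, −0.17 and −0.18. The glycolysis list stood at 1.39 against 0.19, and the pigment list at 0.98 against 0.87. The difference of slopes between the groups was called for no gene (0 of 16898, 2080 at an unadjusted p under 0.05), while DESeq2 called 156 with a higher and 34 with a lower slope in treated lungs. Without untreated replicate 2 edgeR called 856 and 33.

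On a linear scale the fall of the summed resident markers was more alike in both groups. Other lists, such as glycolysis, were not fitted on that scale. The 5 load genes took 0.0821, 0.156, 0.322, 0.661 and 0.779% of all counts in treated lungs, and resident markers 4.39, 4.10, 3.78, 3.32 and 2.81%. In untreated lungs, from low to high load, the shares were 1.21, 1.49, 1.54, 1.59 and 1.82% for load genes and 2.57, 2.03, 1.55, 1.98 and 1.502% for resident markers. Resident markers lost 2.01 percentage points per point of load genes in treated lungs by least squares, and 1.73 in untreated lungs (1.71 without replicate 2). Both shares are parts of the same total, so this is a description of the libraries and carries no test.

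**Figure D5:**
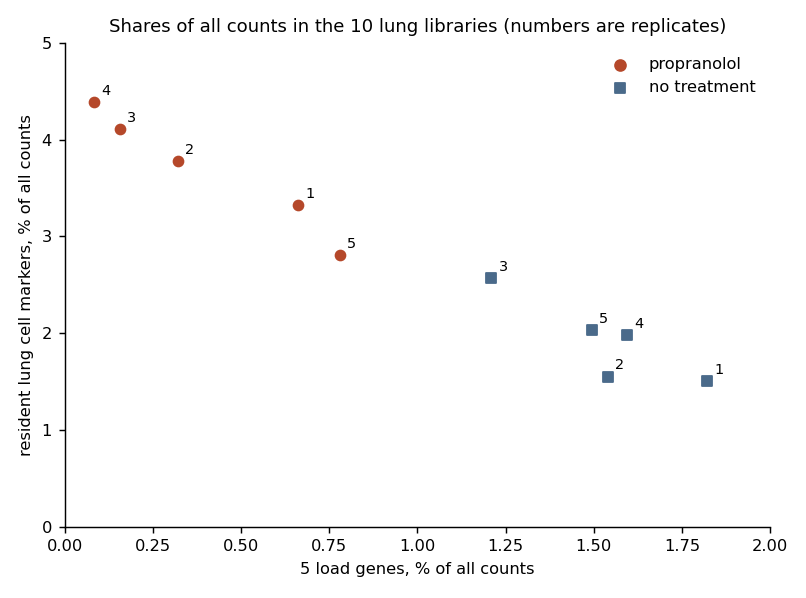
Share of all counts taken by 61 resident lung cell markers (y, %) against the share of the 5 load genes (x, %) in 5 treated (red circles) and 5 untreated (blue squares) lungs, with replicate numbers. The points descend from 4.39% at a load share of 0.0821% to 1.502% at 1.82%.

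Treated libraries of higher load lay nearer to the untreated ones. The share of tested genes whose level fell inside the untreated range was 15.6, 16.05, 18.2, 26.5 and 30.02% in order of load. For genes called higher with load it went from 1.33 to 17.1%, and for those called lower from 4.95 to 34.8%. The called genes were selected for their trend along this same order, so their shift is partly built in. For genes not called the share went from 22.5 to 32.7%. Treated and untreated lungs did not overlap in 9329 genes (55.2%), of which 4091 (43.9%) were called on load within treated lungs. Of the 7569 genes that did overlap, 1893 (25.01%) were called. The slope fit used treated libraries alone, so these counts set a within-group measure beside a between-group one. They do not separate propranolol from load, since load and treatment cannot be told apart across the groups.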

How the data were processed

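Poly(A) RNA of whole lung was sequenced after a NEBNext preparation, per the labels' protocols. The table the authors deposited holds raw counts, whole numbers per gene with no normalization. The submitters' processing notes name STAR 2.7.9, featureCounts, Subread 2.0.3 and build GRCm39. No source used here says if strand was used in counting, so overlapping and antisense genes are uncertain. Symbols were matched for 52083 of 55416 genes (94.0%). The CD4 T cell table was not used here.

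Slopes on load were fitted and tested in edgeR 4.0.16 by quasi-likelihood (R 4.3.3, TMM, Benjamini-Hochberg, threshold 0.05, 3 residual degrees of freedom), for treated and untreated lungs apart. The difference was a group by load term over all 10. Alternatives were other scalings, filters, loads and tests (DESeq2 1.42.0, limma 3.58.1), and each library left out. The scripts were tested on simulated counts. Named were the load genes, the 8 genes of smallest p per direction with a mean of at least 5 CPM, up to 3 most abundant members per list, Adrb1, Adrb3 and genes marked as chosen after their values had been seen; Mitf, Thbs2, Timp1, Hspd1, Hspa1a, Hspa1b, Hspb1, Hsph1, Vegfb, Nrp2, Gas5, Sln, Myh6, Fscn1, Ctsw the uncalled hypoxia genes and the uncalled airway genes were also chosen so. A few genes are not reported here. The members, the lists and the load were chosen with earlier results of these data known.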

Additional observations from a re-analysis of the deposited data

Results flagged for a closer look

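Among 172 sets of 5 values checked, 4 had a sample far from the other 4 by Dixon's test, which chance gives in about 1 of 20 sets. Treated replicate 5, the library of highest load, stood apart in Arg1 at 14.8 CPM and in Myh6 at 9.33 CPM. Untreated replicate 2 stood apart in Timp1 at 126 CPM and in Saa3 at 16.2 CPM.

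The load genes were also found in the libraries labelled monocytes, which enter no comparison here. Their load ran from 8.79 to 9.02 without treatment and from 9.12 to 9.65 with propranolol. The treated libraries were thus the higher ones, the reverse of whole lung. The difference was not tested.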

How the results depend on the processing

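Slopes on load in treated lungs were recomputed under 15 alternatives for 78 of the named genes. Of 1167 recomputed values, 1095 kept direction and call, 52 lost the call, 4 gained it and 16 changed sign. With 1 treated library left out, slopes ranged from −0.0105 to 0.0854 for Hsph1, from −0.0358 to 0.277 for Ighm and from −0.219 to 0.098 for Gzma, and each changed sign without replicate 5. With resident scaling 13 slopes changed sign: Kit 0.0224, Ednrb 0.00753, Ager 0.0228, Mylk 0.0185, Ighd 0.041, Cd2 0.0076, Gzma 0.106, Csf1r 0.0893, Mrc1 0.0418, Neat1 0.0462, Hspb1 0.0333, Sdc1 0.0655 and Adra1a 0.0148. Bnip3 and Adm, which were not among the 78, also changed sign (0.131 and 0.164). That scaling gave 8819 higher and 72 lower calls, and the median ratio of the same markers, added after the data had been seen, 9023 and 63. It gave 6719 genes rising and 18 falling in strict order in treated lungs and 491 and 13 in untreated lungs. List medians above 0 went from 14 to 38 of 44. Leaving out 1 treated library gave 2258 to 3594 higher and 1615 to 2897 lower calls. In untreated lungs 0 genes were called in either direction, against 239 and 465 with DESeq2, 5737 and 6 with the median ratio, and 0 to 726 and 0 to 1329 with 1 library left out. For the difference of slopes 0 were called, against 156 and 34 with DESeq2, 1 higher with library totals, and 0 to 856 and 0 to 33 with 1 library left out. The untreated order kept 3 of 5 ranks without Tyrp1, without Pmel or with TMM-scaled CPM, and 1 with 5 other pigment genes. The causes were not tested.

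Same-numbered libraries did not deviate together throughout. Correlations ran from −0.10 to 0.55 and were over 0.1 for 2 of 5 numbers. Of 5 treated libraries 2 correlated best with their own number, so the libraries were not paired. Libraries at the same end of the load orders also correlated (0.59 for treated replicate 5 and untreated replicate 1), so this check cannot exclude a pairing. With the replicate number as a block, 0 differences of slopes were called, as without it. With 5 libraries and 3 residual degrees of freedom, small slopes of low genes could not be resolved.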
